A study of Mus musculus with 12 samples.

Results

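The genes described here are 9 transcription factor genes that pattern the embryo or mark mesenchyme: Gbx2, Irx1, Irx2, Irx3, Twist1, Twist2, Prrx1, Meis1 and Meis2. They are homeobox genes outside the Hox clusters and the twist genes, and some were picked because they differed by genotype or with LPS on these arrays. Which of them were picked on which difference is not stated, so every member difference below is a description with its standard error (SE) and no p-value. The platform annotation gives them 21 of the 45281 probes on the array. They make up 9 of the 11060 genes that were tested. Detection (a detection p-value below 0.05 against the array's negative controls) was reached on all 12 arrays by 13 of the 21 probes, on some arrays by 4 and on none by 4. The 17 probes detected on at least 3 arrays were kept, at least 1 for each gene.

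The arrays profiled intestinal subepithelial myofibroblast (ISEMF) lines, contractile stromal cells that sit under the gut epithelium, grown from mouse colon. Each group held 3 lines. The groups were miR-143/145 null lines KO4, KO10 and KO15 after 24 h in 1 ug/mL lipopolysaccharide (LPS, the bacterial envelope component that TLR4 senses), wild-type lines WT5, WT7 and WT13 after the same LPS treatment, the null lines without LPS, and the wild-type lines without LPS. The null lines lack the miR-143/145 microRNA pair throughout, with no tissue-specific driver named in the labels, and all lines grew in serum with insulin, transferrin and epidermal growth factor. Strain, age and whether the lines came from separate animals are not given, so the spread between lines may be partly technical. All LPS arrays lay on one slide and all untreated arrays on the other, which means that an LPS effect and a slide effect cannot be told apart. On each slide the WT lines held the leading positions and the KO lines the rest, so genotype and position cannot be told apart either.

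Between 19223 and 20249 probes were detected per array, 42.5% to 44.7% of all probes. The number of arrays, 3 a group, limits the precision of every value. Of the myofibroblast markers, 6 of 7 smooth muscle genes and 7 of 8 fibroblast genes were detected on all 12 arrays, and Acta2, the smooth muscle actin that defines myofibroblasts, read between 15.19 and 15.28 on the log2 intensity scale. The epithelial markers Epcam and Vil1, the endothelial marker Pecam1, the leukocyte markers Ptprc and Itgam and the glial markers S100b, Gfap and Erbb3 were detected on no array. Other genes of the same lists were detected on all 12 arrays, namely Krt8, Krt18 and Krt20 of the epithelial list, Csf1r, Cd14 and Lyz2 of the leukocyte list (Lyz2 at up to 11.32) and Sox10 of the glial list, and Tek and Emcn of the endothelial list were detected on 11. The LPS array of line WT13 stood apart: its mean correlation with the other arrays of its group was 0.9869, against 0.9901 to 0.995 for the other 11 arrays, and values of a gene's representing probe that it moved by over 1.5 times or across the threshold are also given without it.

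Homeobox proteins bind DNA through a helix-turn-helix domain and give cells of the embryo a positional identity that cultured fibroblasts often retain. Gbx2 sets the border between midbrain and hindbrain in mouse embryos. The Iroquois genes (Irx) lie in clusters and pattern the heart, limb and nervous system. Meis1 and Meis2 belong with the Iroquois genes to the TALE class, and their proteins bind DNA together with Pbx and Hox proteins. Prrx1 marks limb and facial mesenchyme. Twist1 and Twist2 are basic helix-loop-helix (bHLH) factors of mesenchyme that pair with E proteins at E-boxes, and in mice they restrain cytokine genes driven by NF-kB.

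Shown here are the promoters of Twist2, which had the largest LPS difference of the 9 genes, of Irx2, which had the largest genotype difference, of Gbx2, in which genotype held the largest share of the variation, and of Twist1, the close relative of Twist2. Each runs 5′ to 3′ on the gene's strand from 250 bases before the transcription start to 50 after it, from RefSeq on GRCm38.p6. They lie at chr1:91801211-91801510 (plus strand, Twist2), chr12:33957421-33957720 (plus strand, Twist1), chr1:89931127-89931426 (minus strand, Gbx2) and chr13:72628570-72628869 (plus strand, Irx2). Capitals mark any of 4 motifs searched on both strands: an NF-kB pattern (3 G, then 5 bases of any kind, then 2 C), a Meis hexamer (TGACAG), a STAT pattern (TTCNNNGAA) and the E-box (CANNTG).
Twist2: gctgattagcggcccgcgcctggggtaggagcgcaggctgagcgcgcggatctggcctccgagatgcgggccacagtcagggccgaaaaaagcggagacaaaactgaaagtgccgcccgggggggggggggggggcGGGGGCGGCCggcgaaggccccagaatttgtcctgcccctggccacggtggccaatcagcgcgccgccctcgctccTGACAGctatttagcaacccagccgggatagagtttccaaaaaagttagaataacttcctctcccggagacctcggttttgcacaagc
Twist1: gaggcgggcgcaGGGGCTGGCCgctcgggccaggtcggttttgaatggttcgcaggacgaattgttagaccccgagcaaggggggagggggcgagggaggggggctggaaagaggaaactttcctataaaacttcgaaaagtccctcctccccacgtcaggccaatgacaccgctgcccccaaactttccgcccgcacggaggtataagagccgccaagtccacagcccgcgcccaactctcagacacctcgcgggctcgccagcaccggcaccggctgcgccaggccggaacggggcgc
Gbx2: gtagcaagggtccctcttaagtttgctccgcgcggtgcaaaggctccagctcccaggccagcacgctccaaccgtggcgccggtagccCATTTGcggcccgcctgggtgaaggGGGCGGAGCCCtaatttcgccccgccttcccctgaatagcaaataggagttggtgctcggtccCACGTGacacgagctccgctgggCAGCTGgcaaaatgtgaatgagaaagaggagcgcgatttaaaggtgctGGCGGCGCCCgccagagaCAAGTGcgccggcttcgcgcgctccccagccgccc
Irx2: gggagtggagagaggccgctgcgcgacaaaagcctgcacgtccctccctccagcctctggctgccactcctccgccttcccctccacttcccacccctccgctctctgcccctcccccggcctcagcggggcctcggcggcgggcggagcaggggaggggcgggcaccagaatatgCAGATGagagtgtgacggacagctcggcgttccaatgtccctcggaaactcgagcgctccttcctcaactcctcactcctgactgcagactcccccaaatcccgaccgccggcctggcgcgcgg
A RefSeq promoter was matched for 8 of the 9 genes, all but Irx1. The NF-kB pattern was present in 4 of these 8 promoters (Gbx2, Twist1, Twist2 and Meis2) and in 50.8% of all 32851 promoters of the same length. The Meis hexamer was in 1 of 8 (Twist2) and in 19.2% of all promoters, the STAT pattern in 0 of 8 and in 8.3%, and the E-box in 3 of 8 (Gbx2, Irx2 and Meis1) and in 72.3%. Of the 3 NF-kB matches in the Gbx2 promoter, 1 on each strand overlap at bases 114 to 124, and the other ends at base 257. Twist2 and Twist1 carried 1 NF-kB match each, ending at base 146 in Twist2 and at base 22 in Twist1. A match describes letters only. Promoter GC content was 64.7% for Twist2, 66.0% for Twist1, 64.7% for Gbx2 and 69.0% for Irx2, against a median of 52.7% over all promoters.

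Over the 9 genes, the largest genotype difference and the largest LPS difference lay in different members, Irx2 and Twist2. Gbx2 and Irx3 were lower in KO lines and Irx1 and Irx2 higher, with and without LPS. Twist2 stood higher with LPS in all 6 lines. Gbx2 read lower and Irx1 higher with LPS in all 6 lines too, by smaller mean changes. Twist1, Meis1 and Meis2 differed between the genotypes by 0.21 or less on their representing probes, and by up to 0.44 on further Meis probes. Prrx1 varied mainly between lines. The plot of levels in the 4 groups shows every array.

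**Figure D1:**
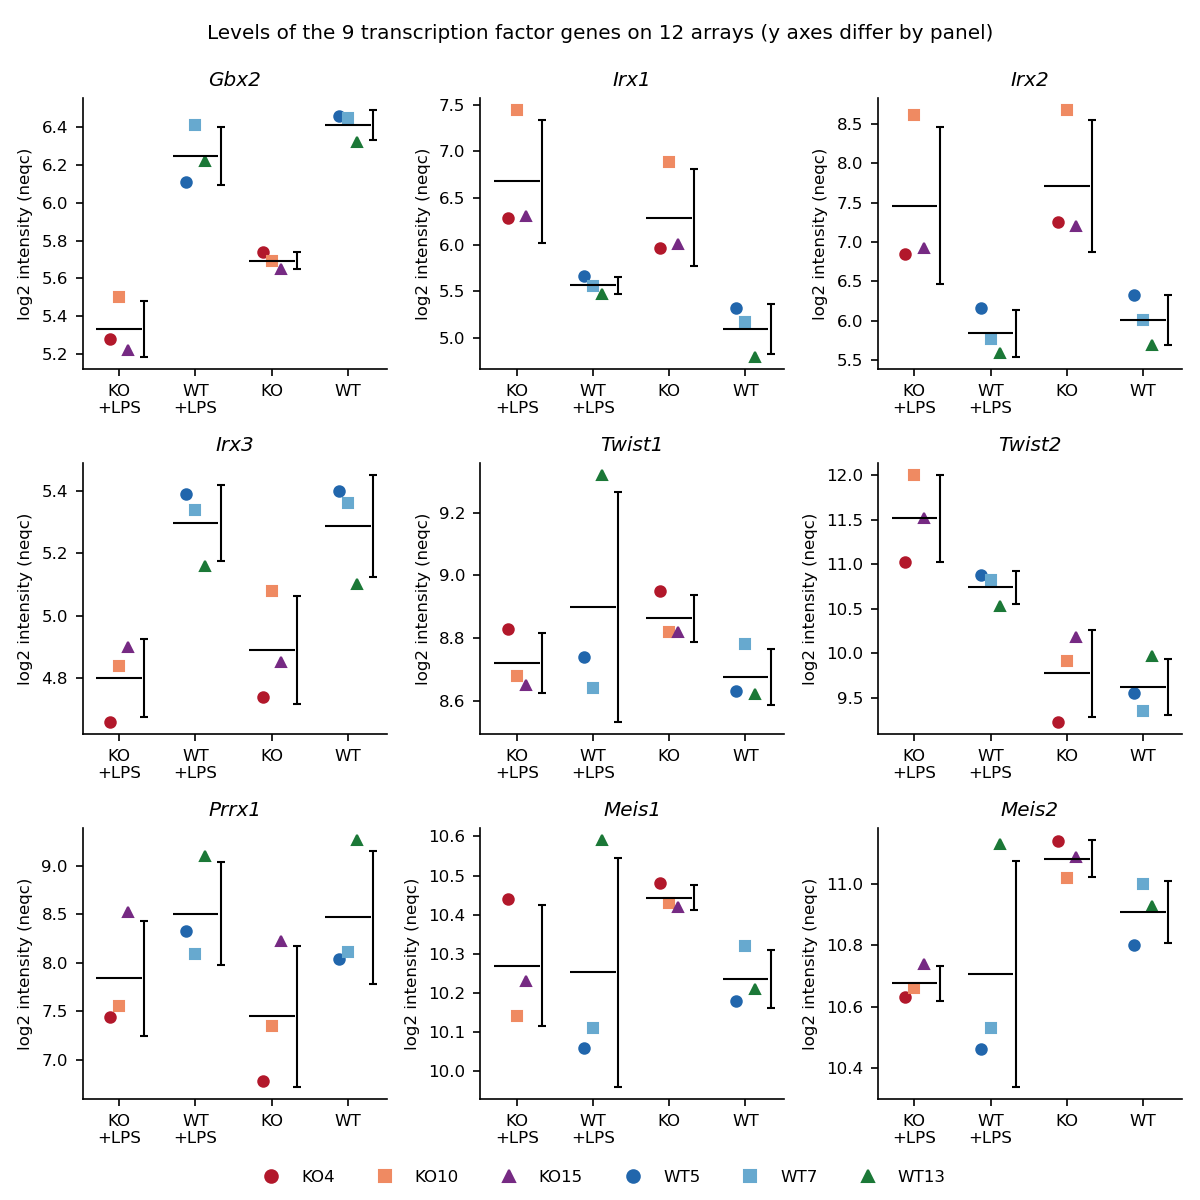
Log2 intensity of the representing probe of each of the 9 genes (y axes, scales differ by panel) on 12 arrays in 4 groups (x axes), KO with LPS, WT with LPS, KO and WT; points are lines, horizontal bars are means and vertical bars are 1 SD (n = 3). Gbx2 lies between 5.22 and 5.74 on all KO arrays and between 6.11 and 6.46 on all WT arrays, and Twist2 lies between 10.53 and 12 on all LPS arrays and between 9.23 and 10.18 on all untreated arrays.

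Gbx2 (NM_010262, chr1:89927962-89931176, minus strand) had 1 probe, detected on all 12 arrays. With LPS it read 5.28, 5.50 and 5.22 in KO4, KO10 and KO15, against 6.11, 6.41 and 6.22 in WT5, WT7 and WT13. Without LPS it read 5.74, 5.69 and 5.65 in those KO lines, against 6.46, 6.45 and 6.32 in those WT lines. No KO array reached the lowest WT array, also across treatments. The KO minus WT difference was -0.91 (SE 0.10) with LPS and -0.72 (SE 0.10) without it, 1.88-fold and 1.64-fold lower in KO lines.

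Gbx2 was a dim probe, and its size of difference depended on how background was handled. Its unnormalised signal lay between 142.8 and 202.2 on arrays whose median signals were 115.5 to 136.1. Without background subtraction the same differences were -0.33 with LPS and -0.29 without it, with the same sign. Genotype accounted for 85.3% of the sum of squares of Gbx2 over the 12 arrays and line within genotype for 2.49%, against medians of 4.91% and 25.8% over all genes tested. Some members were picked on such differences, so nothing is concluded from the distance to these medians. Gbx2 read lower with LPS in each of the 6 lines, by changes of -0.46, -0.19 and -0.43 in KO4, KO10 and KO15, against -0.35, -0.05 and -0.10 in WT5, WT7 and WT13. In bulk RNA, fewer cells of a type and less RNA per cell cannot be told apart for this or any other gene below.

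Irx1 and Irx2 are neighbours on chromosome 13 (Irx1 at chr13:71958232-71963723, NM_010573; Irx2 at chr13:72624430-72634196, NM_010574), 661 kb apart with 0 protein-coding genes between them in the RefSeq annotation. Irx1 had 1 probe, detected on 11 of 12 arrays, the exception being untreated WT13. It read 6.29, 7.44 and 6.31 in KO4, KO10 and KO15 with LPS, against 5.66, 5.56 and 5.47 in WT5, WT7 and WT13 with LPS. The untreated values were 5.97, 6.89 and 6.01 in the KO lines, against 5.32, 5.17 and 4.80 in the WT lines. The genotypes did not overlap in either state, and KO10 was the highest line in both. KO minus WT was 1.12 (SE 0.30) with LPS and 1.20 (SE 0.30) without, 2.17-fold and 2.29-fold higher in KO lines. Without background subtraction these differences were 0.49 with LPS and 0.43 without, and without KO10 they were 0.74 with LPS and 0.90 without. With LPS each line read higher than without it, by 0.32, 0.55 and 0.30 in the KO lines and 0.34, 0.39 and 0.68 in the WT lines.

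Irx2 showed the same arrangement of lines. Its representing probe, detected on all 12 arrays, read 6.85, 8.61 and 6.92 in KO4, KO10 and KO15 with LPS, against 6.17, 5.77 and 5.59 in WT5, WT7 and WT13 with LPS. Untreated, it read 7.26, 8.67 and 7.20 in the KO lines, against 6.33, 6.01 and 5.69 in the WT lines. Every KO array lay above every WT array, and KO10 lay more than 1 log2 unit above the other KO lines. KO minus WT was 1.62 (SE 0.46) with LPS and 1.70 (SE 0.46) without, 3.07-fold and 3.24-fold higher. Without KO10 the differences were 1.04 with LPS and 1.22 without. Without background subtraction, all lines kept, they were 0.86 with LPS and 0.94 without.

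A second Irx2 probe, also detected on all 12 arrays, separated the genotypes in the same direction. It read 6.93, 8.51 and 7.11 in the KO lines with LPS, against 6.01, 5.34 and 5.87 in the WT lines with LPS. Its KO minus WT difference was 1.77 (SE 0.43) with LPS and 1.44 (SE 0.43) without. The 2 probes went opposite ways with LPS. The representing probe read lower with LPS in all 6 lines, by changes of -0.41, -0.06 and -0.28 in KO4, KO10 and KO15, against -0.17, -0.24 and -0.10 in WT5, WT7 and WT13. The second probe read higher in 5 of 6 lines, with changes of 0.54, 0.48 and 0.49 in those KO lines, against 0.30, -0.12 and 0.33 in those WT lines. Between group means, whose SE holds the spread between lines, the representing probe differed by -0.25 (SE 0.46) in KO lines and -0.17 (SE 0.46) in WT lines (-0.04 without the WT13 LPS array), and the second by 0.50 (SE 0.43) in KO lines and 0.17 (SE 0.43) in WT lines. A direction for Irx2 with LPS therefore depended on the probe. The third Irx2 probe was detected on no array.

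**Figure D2:**
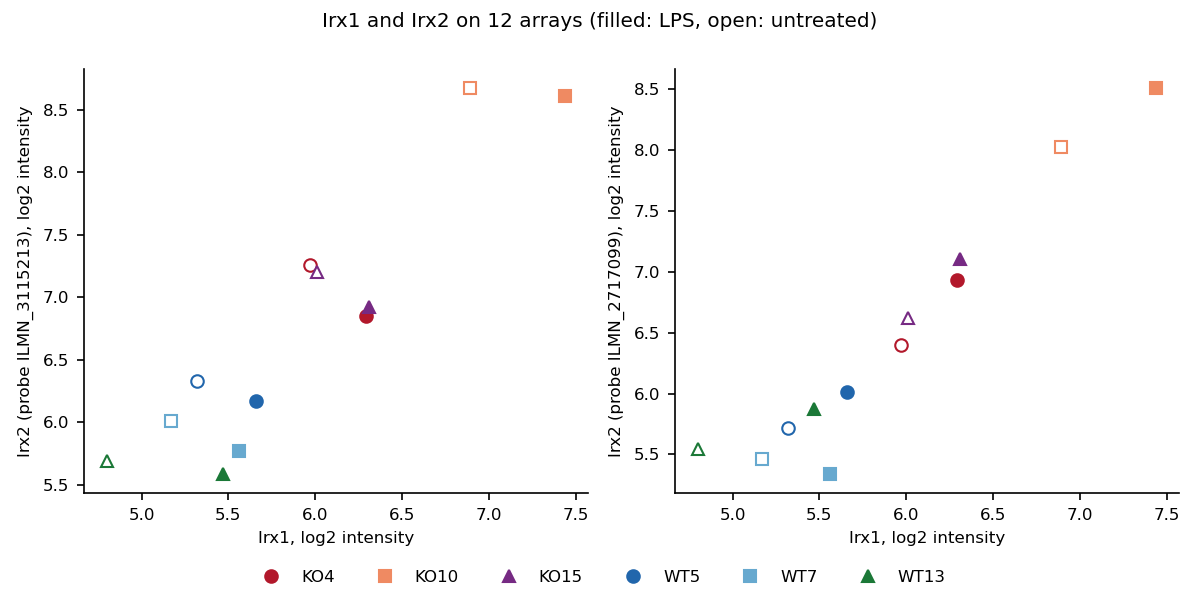
Log2 intensity of Irx1 (x axes) against Irx2 (y axes) on the 12 arrays, for the representing Irx2 probe on the left and the second detected Irx2 probe on the right; filled symbols are LPS arrays and open symbols untreated arrays of the same lines. The KO10 arrays lie at the upper right (Irx1 at 6.89 and 7.44), KO4 and KO15 between them and the WT lines, and the WT arrays at the lower left (Irx1 from 4.80 to 5.66).

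After each slide's mean was subtracted, Irx1 and Irx2 correlated at r = 0.996 over the 12 arrays, which share 6 lines and 2 slides. Genotype was not subtracted, so this r includes the genotype difference. Line within genotype held 24.6% of the sum of squares of Irx1 and 30.6% of that of Irx2, beside 65.5% and 68.0% for genotype. The third Iroquois gene behaved differently. Irx3 (NM_008393, chr8:91798511-91801654, in the other Iroquois cluster) was close to background, detected on 1 of 3 KO arrays and 3 of 3 WT arrays both with and without LPS. It read 4.66, 4.84 and 4.90 in KO4, KO10 and KO15 with LPS, against 5.39, 5.34 and 5.16 in WT5, WT7 and WT13 with LPS. Untreated values were 4.74, 5.08 and 4.85 in KO lines, against 5.40, 5.36 and 5.10 in WT lines. The groups did not overlap, though untreated KO10 and WT13 lay next to each other. KO minus WT was -0.50 (SE 0.12) with LPS and -0.40 (SE 0.12) without, and -0.14 and -0.11 without background subtraction. No other gene of these families passed the filter: Irx4, Irx6 and Gbx1 were detected on 0 arrays and Irx5 on 1.

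Marker genes were set beside the genotype differences as summed background-corrected linear signals. Of the tested marker genes, Emcn of the endothelial list was the 1 called for genotype, at -0.74 with LPS (SE 0.13, limma adjusted p = 0.0447) and -0.80 without LPS (SE 0.13, limma adjusted p = 0.035). On line means Emcn stood at -0.77 and was not called (SE 0.11, limma adjusted p = 0.0608). The endothelial list, with 0 of 5 genes detected on all 12 arrays and Pecam1 on none, summed to 68 to 75 in KO lines with LPS against 90 to 112 in WT lines with LPS, and to 85 to 92 against 101 to 140 without LPS. Not every gene of the list was lower in KO lines. Untreated, Cdh5, Kdr and Tek averaged 4.71, 5.30 and 5.17 on the log2 scale in KO lines, against 4.65, 5.21 and 5.09 in WT lines. With LPS, Kdr was higher in KO lines, at 5.19 against 5.04. Cdh5 and Tek were lower in KO lines with LPS, at 4.71 and 5.32 against 4.93 and 5.45 in WT lines. The glial and neuronal list, with 1 of 6 genes on all 12 arrays, summed to 22 to 46 in KO lines with LPS against 40 to 87 in WT lines with LPS, and to 21 to 44 against 44 to 113 without LPS. The epithelial list had 3 of 7 genes on all 12 arrays. With LPS it summed to 113 to 200 in KO lines against 179 to 347 in WT lines. Without LPS it summed to 251 to 341 against 280 to 532, so its sums overlapped between genotypes in both states. Its gene Krt20 was lower in KO lines without overlap in both states, and was not called. Untreated, Krt20 averaged 5.80 on the log2 scale in KO lines against 6.82 in WT lines. With LPS it averaged 5.68 against 6.69. Krt8 and Krt18 were lower in KO lines with overlap in both states, and Cdh1 was higher with overlap. The mesothelial and Cajal cell list had 2 of 5 genes on all 12 arrays, and its sums overlapped between genotypes too. With LPS they were 182 to 186 in KO lines against 93 to 230 in WT lines. Without LPS they were 239 to 271 against 120 to 319. The smooth muscle sums overlapped with LPS, at 66524 to 70987 in KO lines against 68447 to 80216 in WT lines, and did not overlap without LPS, at 85268 to 86799 in KO lines against 88267 to 91131 in WT lines. Within the smooth muscle list, Myh11, Tagln and Myl9 were lower in KO lines with LPS, without overlap. They stood at -0.68, -0.45 and -0.41 and were not called, and 2 of the 7 genes were higher in KO lines. Fibroblast sums were higher in KO lines with LPS, at 36819 to 40064 against 30760 to 36771 in WT lines, without overlap. Untreated they overlapped, at 38502 to 41436 against 37348 to 41432. In each state 4 of the 8 fibroblast genes were higher in KO lines, among them Lum and Pdgfra, with 0 called. Leukocyte sums overlapped with LPS, at 549 to 2077 in KO lines against 1269 to 1770 in WT lines. Untreated they also overlapped, at 641 to 2803 against 1419 to 2311. The part of these markers in the genotype differences of Gbx2 and the Iroquois genes was not tested.

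Twist2 (NM_007855, chr1:91801461-91848034) had the largest LPS change of the 9 genes in both genotypes. With LPS it read 11.03, 12 and 11.52 in KO4, KO10 and KO15, against 9.23, 9.91 and 10.18 in the same lines untreated. In WT5, WT7 and WT13 it read 10.88, 10.82 and 10.53 with LPS, against 9.55, 9.35 and 9.97 untreated. No LPS array overlapped any untreated array. The LPS minus untreated difference was 1.74 (SE 0.27) in KO lines and 1.12 (SE 0.27) in WT lines, 3.35-fold and 2.17-fold higher with LPS.

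Line by line, Twist2 changed with LPS by 1.79, 2.09 and 1.34 in KO4, KO10 and KO15, against 1.33, 1.47 and 0.56 in WT5, WT7 and WT13. WT13, whose LPS array stood apart, had the smallest change, and the ranges of the KO and WT lines overlapped. The LPS change in KO minus that in WT was 0.62 (SE 0.38), and 0.34 without WT13. With LPS the KO lines lay above the WT lines without overlap, by 0.77 (SE 0.27), whereas without LPS the groups overlapped and differed by 0.15 (SE 0.27). LPS or slide held 74.1% of the sum of squares of Twist2, against a median of 25.9% over all genes tested. Because some members were picked on LPS differences, nothing is concluded from that distance.

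**Figure D3:**
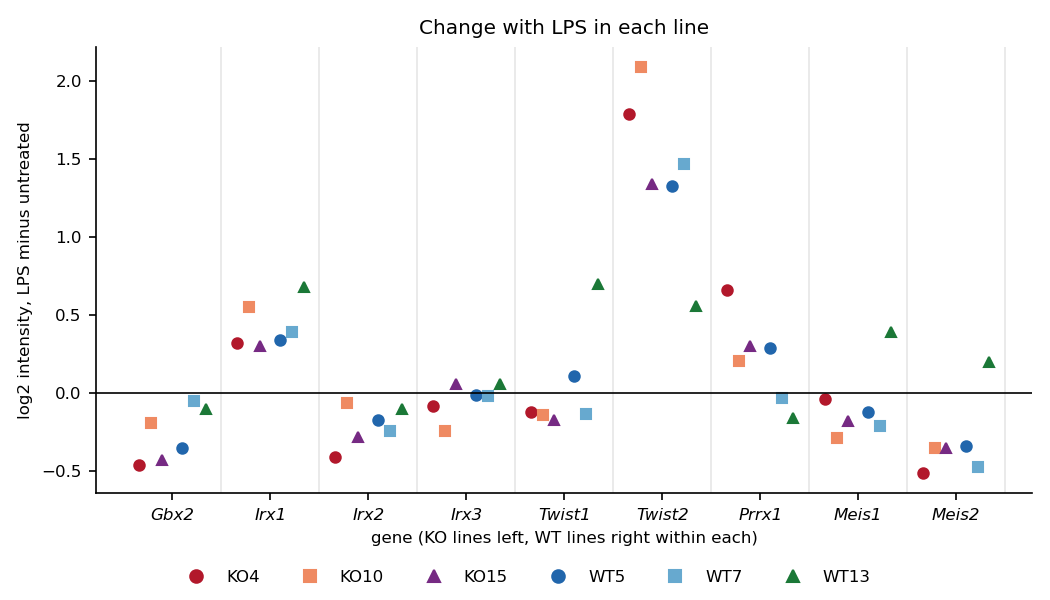
LPS minus untreated difference in log2 intensity (y axis) for each of the 6 lines and 9 genes (x axis), KO lines on the left and WT lines on the right within each gene. Twist2 is above 0 in every line, from 0.56 in WT13 to 2.09 in KO10, Irx1 is above 0 in every line by 0.30 to 0.68, and WT13 is the line above the others for Twist1, Meis1 and Meis2.

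Twist1 (NM_011658, chr12:33957671-33959831) did not follow Twist2. It read 8.83, 8.68 and 8.65 in KO4, KO10 and KO15 with LPS, against 8.95, 8.82 and 8.82 in the same lines untreated. In WT5, WT7 and WT13 it read 8.74, 8.64 and 9.32 with LPS, against 8.63, 8.78 and 8.62 untreated. Apart from the WT13 LPS array, the values of the other 11 arrays lay between 8.62 and 8.95. The LPS change was -0.14 (SE 0.15) in KO lines and 0.23 (SE 0.15) in WT lines, and 0.02 in WT lines without the WT13 LPS array. KO minus WT was -0.18 (SE 0.15) with LPS, 0.03 without that array, and 0.19 (SE 0.15) in untreated lines.

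The same array was the highest of its group for both Meis genes. Meis1 (representing probe NM_010789, chr11:18880428-19019651) read 10.44, 10.14 and 10.23 in KO4, KO10 and KO15 with LPS, against 10.06, 10.11 and 10.59 in WT5, WT7 and WT13 with LPS. Untreated values were 10.48, 10.43 and 10.42 in KO lines, against 10.18, 10.32 and 10.21 in WT lines. The untreated genotypes did not overlap, with KO minus WT at 0.21 (SE 0.13), while with LPS they overlapped at 0.02 (SE 0.13). The overlap came from the WT13 LPS array: without it the KO lines lay above the other WT lines with LPS as well, with a difference of 0.19. A further detected Meis1 probe gave 0.33 (SE 0.24) with LPS and 0.32 (SE 0.24) without LPS, with overlap in both.

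Meis2 (representing probe NM_010825, chr2:115861264-116067537) read 10.63, 10.66 and 10.74 in KO4, KO10 and KO15 with LPS, against 11.14, 11.02 and 11.09 in those lines untreated. In WT5, WT7 and WT13 it read 10.46, 10.53 and 11.13 with LPS, against 10.80, 11 and 10.93 untreated. The LPS arrays lay below the untreated ones in KO lines, and in WT lines the WT13 LPS array lay above all untreated WT arrays. LPS minus untreated was -0.41 (SE 0.15) in KO lines and -0.20 (SE 0.15) in WT lines, and -0.41 in WT lines without the WT13 LPS array. KO minus WT with LPS was -0.03 (SE 0.15), and 0.18 without that array. In untreated lines KO minus WT was 0.17 (SE 0.15), without overlap between the genotypes.

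The 3 detected Meis2 probes disagreed on LPS. A second probe, from the transcript AK045126, changed by -0.52 (SE 0.14) in KO lines and -0.29 (SE 0.14) in WT lines, in the direction of the representing probe. A further probe, assigned to the same RefSeq transcript as the representing probe, changed by 0.30 (SE 0.15) in KO lines and 0.38 (SE 0.15) in WT lines. It read 8.35, 8.39 and 8.63 in KO lines with LPS, against 7.88, 8.36 and 8.22 in KO lines untreated. No direction with LPS can therefore be given for Meis2 as a gene, and which transcripts each probe reads was not analysed here. For genotype, the second probe was higher in KO lines by 0.44 (SE 0.14) untreated, without overlap. With LPS it was higher by 0.21 (SE 0.14), with overlap. The further probe was higher in KO lines by 0.30 (SE 0.15) untreated and 0.21 (SE 0.15) with LPS, with overlap in both.

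Prrx1 (chr1:163245119-163315145) was spread over the lines more than over the groups. Its representing probe (NM_175686) read 7.44, 7.56 and 8.52 in KO4, KO10 and KO15 with LPS, against 8.33, 8.09 and 9.10 in WT5, WT7 and WT13 with LPS. Untreated it read 6.78, 7.35 and 8.22 in KO lines, against 8.04, 8.11 and 9.26 in WT lines. KO15 was the highest KO line and WT13 the highest WT line in both states, and the genotypes overlapped in both. KO minus WT was -0.66 (SE 0.43) with LPS and -1.02 (SE 0.43) without, and the untreated value was -0.62 without WT13. The value with LPS was -0.37 without WT13 and -1 without KO15. With LPS the representing probe changed by 0.66, 0.21 and 0.30 in KO4, KO10 and KO15. The changes in WT5, WT7 and WT13 were 0.29, -0.03 and -0.16. Group means differed by 0.39 (SE 0.43) in KO lines and 0.04 (SE 0.43) in WT lines (-0.26 without the WT13 LPS array). Line within genotype held 56.1% of the sum of squares, the highest share of the 9 genes, and genotype 37.9%.

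The other 4 kept Prrx1 probes gave negative KO minus WT differences as well, -0.81, -0.68, -0.51 and -0.39 with LPS and -0.84, -0.81, -0.30 and -0.46 without. The smaller pairs came from probes detected on 6 and 3 arrays. Probes ILMN_2614463 and ILMN_3057018, both detected on all 12 arrays, read higher with LPS in all 6 lines. They changed by 0.38 (SE 0.45) and 0.56 (SE 0.42) in KO lines, and by 0.35 (SE 0.45) and 0.44 (SE 0.42) in WT lines. The probes detected on 6 and 3 arrays read higher with LPS in 5 and 4 of 6 lines. Over all genes with more than 1 kept probe, Irx2, Prrx1, Meis1 and Meis2, the further probes had the sign of the representing probe in 8 of 8 cases for genotype without LPS, 6 of 8 for genotype with LPS, 5 of 8 for LPS in KO lines and 6 of 8 for LPS in WT lines.

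**Figure D4:**
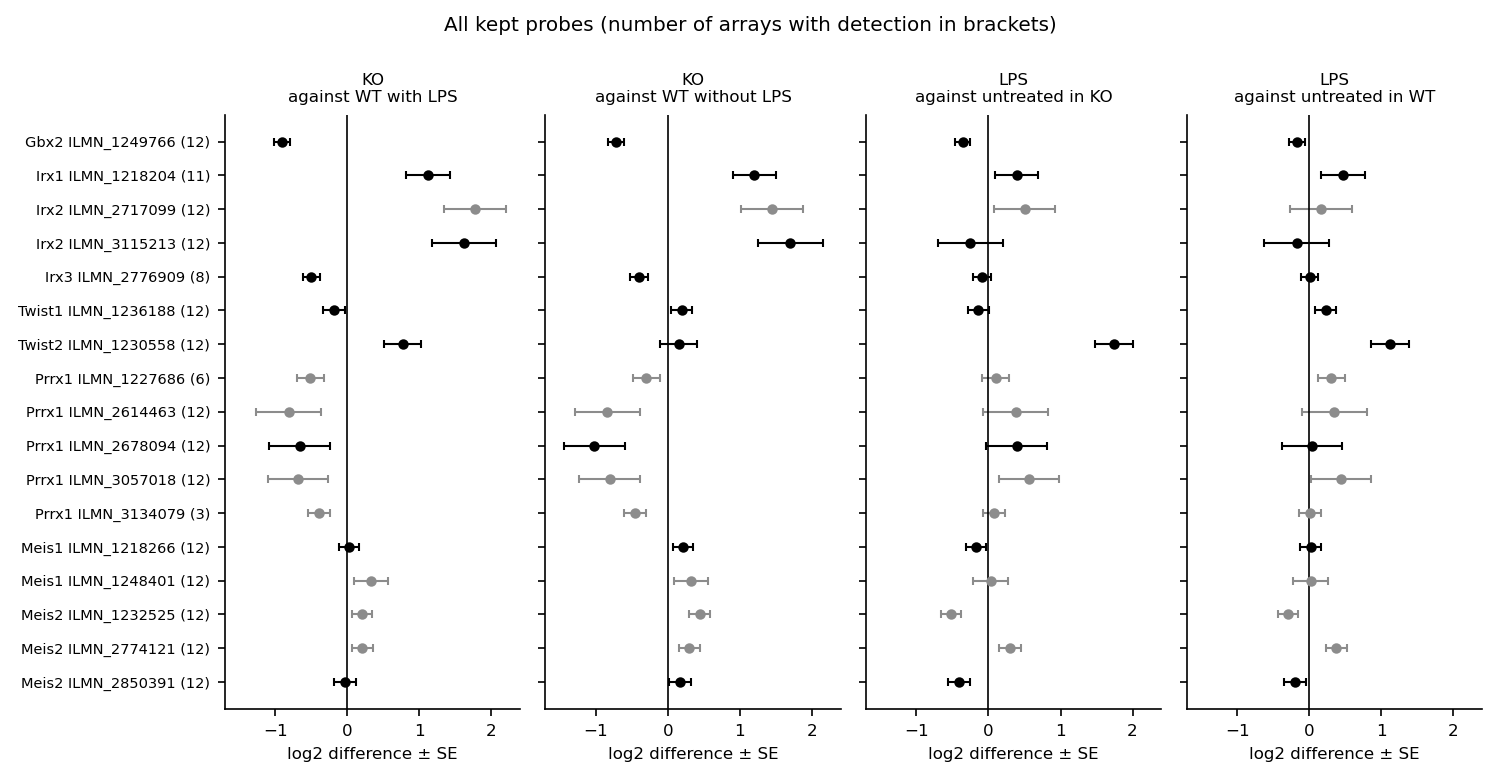
KO minus WT differences (left panels, with and without LPS) and LPS minus untreated differences (right panels, in KO and WT lines) in log2 intensity (x axes) for the 17 kept probes (rows, with the number of arrays of 12 that detected each in brackets); black points represent the gene, grey points are further probes and bars are 1 SE. Both Irx2 probes lie right of 0 for genotype, all 5 Prrx1 probes left of it, and the Meis2 probe ILMN_2774121 lies right of 0 with LPS while the other Meis2 probes lie left of it.

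Counts of called members, at a limma adjusted p below 0.05 over all 11060 genes, are read against the share called in the whole table, and nothing is concluded from them because the members were picked on such differences. Genotype with LPS called 1 of 9 members (Gbx2, lower in KO lines), where 0.325% of all genes were called and 0.0995% were called lower. Genotype without LPS called 1 (Gbx2, lower), against 0.181% of all genes and 0.0633% called lower. Genotype on the means of each line's arrays called 1 (Gbx2, lower), against 0.127% and again 0.0633% called lower. The untreated call was lost when any one of the 6 lines was left out, while the call with LPS held under 14 of 15 alternatives. LPS called 2 members in KO lines (Twist2 higher, Gbx2 lower), against 14.7% of all genes, 7.45% called higher and 7.22% called lower. It called 1 in WT lines (Twist2, higher), against 22.8% of all genes, 10.5% called higher and 12.3% called lower. Twist2 in KO lines was called under all 15 alternatives tried, and in WT lines under 13, the exceptions being without WT5 and without WT7. The Gbx2 call with LPS in KO lines held under 9 of 15. With line as a block, the LPS calls were 3 members in KO lines (Gbx2, Irx1 and Twist2) and 2 in WT lines (Irx1 and Twist2). Without the WT13 LPS array they were 3 in KO lines (Gbx2, Meis2 and Twist2) and 2 in WT lines (Meis2 and Twist2). The difference between the LPS changes of KO and WT lines called 0 members and 0 of all 11060 genes in limma, where 0 members and 3.54% of all genes had an unadjusted p below 0.05.

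Groups of 3 without overlap were seen in 5 of 9 members for genotype with LPS (13.2% of all genes), in 7 of 9 without LPS (18.7%) and in 4 of 9 on line means (16.1%). Between LPS and untreated arrays they were seen in 3 of 9 in KO lines (37.1%) and in 2 of 9 in WT lines (39.9%). The median member difference was -0.031 for genotype with LPS and 0.172 without LPS, beside medians over all genes of 0.008 and -0.003. For LPS it was -0.142 in KO lines and 0.018 in WT lines, beside -0.033 and -0.055. Markers also moved with LPS. The fibroblast list summed to 36819 to 40064 in KO lines with LPS against 38502 to 41436 untreated, with overlap. In WT lines it summed to 30760 to 36771 with LPS against 37348 to 41432 untreated, without overlap. Of its 8 genes, 1 was called in KO lines (Vim, lower). In WT lines 3 were called, Vim and Col1a1 lower and Pdgfra higher. The smooth muscle list summed to 66524 to 70987 in KO lines with LPS against 85268 to 86799 untreated, and to 68447 to 80216 in WT lines with LPS against 88267 to 91131 untreated, with 4 of 7 genes called in each genotype. The epithelial list summed to 113 to 200 in KO lines with LPS against 251 to 341 untreated, without overlap, and to 179 to 347 in WT lines with LPS against 280 to 532 untreated, with 0 genes called. In the leukocyte list Cd14, a co-receptor for LPS, rose by 1.43 in KO lines (SE 0.41, limma adjusted p = 0.0386) and by 1.62 in WT lines (SE 0.41, limma adjusted p = 0.0157). The list as a whole summed to 549 to 2077 in KO lines with LPS against 641 to 2803 untreated, and to 1269 to 1770 in WT lines with LPS against 1419 to 2311 untreated. Its brightest gene, Lyz2, averaged 9.34 on the log2 scale in KO lines with LPS against 10.20 untreated and 9.97 in WT lines with LPS against 10.67 untreated, and was not called. Emcn of the endothelial list fell by 0.60 in KO lines and 0.66 in WT lines (limma adjusted p of 0.0117 and 0.00527). The part of these markers in the LPS changes was not tested.

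For the 7 members detected on all 12 arrays, the tested genes with the most similar pattern were found by correlation over the 12 arrays after each slide's mean was subtracted. Each slide held 1 treatment, so this subtraction also removed the mean difference between LPS and untreated arrays. Arrays share lines and slides, so r is a description. Gbx2 was matched most closely by Fyn, a Src-family kinase (r = 0.961), Pmaip1, which encodes the pro-apoptotic protein Noxa (r = 0.959), and Stard6 (r = 0.948). Line means of these 3 genes differed between KO and WT lines by -0.46, -1.78 and -0.96. Genotype, which held 85.3% of the sum of squares of Gbx2, was not subtracted, so these r values include the genotype difference. After Irx1, the genes nearest to Irx2 were Tmem204 (r = 0.987) and Cyp7b1, an oxysterol hydroxylase (r = 0.956), whose line means differed by 0.83 and 0.94. The r values for Irx2 include the genotype difference too.

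With its mean LPS difference removed, Twist2 was nearest to Prkcsh, a glucosidase subunit of the endoplasmic reticulum (r = 0.933), Cdk2ap2 (r = 0.929) and Smoc1 (r = 0.912). These genes are therefore not matched to Twist2 on its LPS difference. Prrx1 was nearest to Nrp1, the neuropilin receptor (r = 0.936), Scmh1 (r = 0.935) and Crip2 (r = 0.932). Twist1 was nearest to Snrpd3, a spliceosome core protein (r = 0.962), Luc7l3 (r = 0.949) and Pcmt1 (r = 0.947). Meis1 was nearest to Cep170 (r = 0.957), Poglut2 (r = 0.950) and D16Ertd472e (r = 0.934), and Meis2 to Paip2 (r = 0.947), Herpud1 (r = 0.944) and Simc1 (r = 0.936). Among the members, Twist1 correlated with Meis1 at 0.88 and with Meis2 at 0.87, Meis1 with Meis2 at 0.86, and Gbx2 with Irx3 at 0.88. Genotype held 85.3% of the sum of squares of Gbx2 and 76.3% of that of Irx3. It was not subtracted, so the r of Gbx2 with Irx3 includes the genotype difference. The WT13 LPS array was the highest of its slide for Twist1, Meis1 and Meis2.

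Beside the members, 63 related genes were listed by family, of which 57 had a probe with a single symbol and 35 were tested. They cover TALE partners, bHLH partners and relatives of the twist proteins, zinc finger factors of the epithelial-mesenchymal transition (EMT) and other mesenchymal homeobox genes. Between LPS and untreated arrays, 9 of the 35 passed in KO lines, 4 higher and 5 lower with LPS (limma adjusted p below 0.05). In WT lines 11 passed, 4 higher and 7 lower. The share called over all genes was 14.7% in KO lines and 22.8% in WT lines. The lists were drawn up with earlier results of these data known, so nothing is concluded from the counts beside these shares. Their median LPS difference was -0.126 in KO lines and -0.108 in WT lines, beside -0.033 and -0.055 over all genes. In both genotypes 8 genes passed, all in the same direction, which is 88.9% of the KO calls and 72.7% of the WT calls.

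Of 10 bHLH genes tested, 4 passed in KO lines and the same 4 in WT lines on their representing probes. Tcf21, a factor of visceral mesenchyme, fell by 1.64 in KO lines (SE 0.32, limma adjusted p = 0.00528) and by 1.33 in WT lines (SE 0.32, limma adjusted p = 0.0111). It read 6.51, 6.11 and 5.47 in KO lines with LPS, against 8.14, 7.51 and 7.35 untreated, without overlap. Scx, the tendon factor scleraxis, fell by 1.05 in KO lines (SE 0.27, limma adjusted p = 0.0234) and by 1.32 in WT lines (SE 0.27, limma adjusted p = 0.00544). Id1, which binds E proteins and keeps them off DNA, changed by -0.69 in KO lines and -0.79 in WT lines (limma adjusted p of 0.045 and 0.0189). Hand2, a neural crest and heart factor, was the 1 of the 4 that rose, by 0.81 in KO lines and 0.82 in WT lines (limma adjusted p of 0.0143 and 0.00956). Id2, a relative of Id1, did not pass on its brightest probe, at -0.35 in KO lines and -0.22 in WT lines, while its other kept probes passed over all kept probes, at -0.93 and -0.61 in KO lines and -0.81 and -0.54 in WT lines (limma adjusted p of 0.0105 and 0.0018 in KO lines, 0.0142 and 0.00277 in WT lines).

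Among 11 other mesenchymal homeobox genes, 2 passed in KO lines and 4 in WT lines. Hlx, needed for growth of the embryonic mouse gut and liver, read 8.83, 8.55 and 8.54 in KO lines with LPS, against 9.96, 9.51 and 9.46 untreated. In WT lines it read 7.98, 8.09 and 7.71 with LPS, against 9.29, 8.97 and 9.17 untreated. It fell by 1.00 in KO lines (SE 0.15, limma adjusted p = 0.00142) and by 1.22 in WT lines (SE 0.15, limma adjusted p = 0.000281). Nkx2-3, a factor of gut and spleen mesenchyme, fell by 0.74 in KO lines and 0.71 in WT lines (limma adjusted p of 0.0247 and 0.0204), and stood at -0.43 in WT lines without the WT13 LPS array, still past the threshold. En1, an engrailed gene, rose by 1.32 in WT lines (SE 0.34, limma adjusted p = 0.0168) and stood at 1.06 in KO lines (limma adjusted p = 0.0582), where its second kept probe passed at 0.99 (limma adjusted p = 0.0123 over all kept probes). Six5 fell by 0.40 in WT lines (limma adjusted p = 0.02) and stood at -0.16 in KO lines (limma adjusted p = 0.372). Its second kept probe gave -0.17 in WT lines and did not pass (limma adjusted p = 0.327 over all kept probes).

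Of 5 zinc finger EMT factors, 2 passed in KO lines and 1 in WT lines. Snai1, a repressor of E-cadherin, rose by 0.78 in KO lines (SE 0.12, limma adjusted p = 0.00107) and by 0.37 in WT lines (SE 0.12, limma adjusted p = 0.0386). Its second kept probe gave 0.26 in KO lines and 0.22 in WT lines, neither past the threshold. Snai3, its relative, rose by 0.58 in KO lines (SE 0.18, limma adjusted p = 0.046), with 0.17 in WT lines (limma adjusted p = 0.511). Of 9 TALE partners, 1 passed in KO lines and 2 in WT lines. Tgif1, a corepressor of Smad proteins, rose by 0.70 in KO lines and 0.88 in WT lines on its brightest probe (limma adjusted p of 0.011 and 0.00234). Its other kept probes gave 0.03 and 0.10 in KO lines and 0.08 and 0.41 in WT lines, so the size of its change depended on the probe. Pbx3, a DNA-binding partner of Meis proteins, fell by 0.62 in WT lines (limma adjusted p = 0.0234) and stood at -0.50 in KO lines (limma adjusted p = 0.0721), where its other kept probe passed at -0.56 (limma adjusted p = 0.0458 over all kept probes). Of the 16 related genes with a further kept probe, a gene called on its representing probe had a further probe that did not pass in 2 cases in KO lines (Snai1 and Tgif1) and 3 in WT lines (Six5, Snai1 and Tgif1). The reverse held for 3 genes in KO lines (En1, Id2 and Pbx3) and 4 in WT lines (Cux1, Id2, Pknox1 and Tcf12), some of them named here after their values were seen. For Pknox1 and Tcf12 the probe that passed went against the representing probe in WT lines. It gave -0.67 against 0.07 for Pknox1 and 0.60 against -0.11 for Tcf12.

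**Figure D5:**
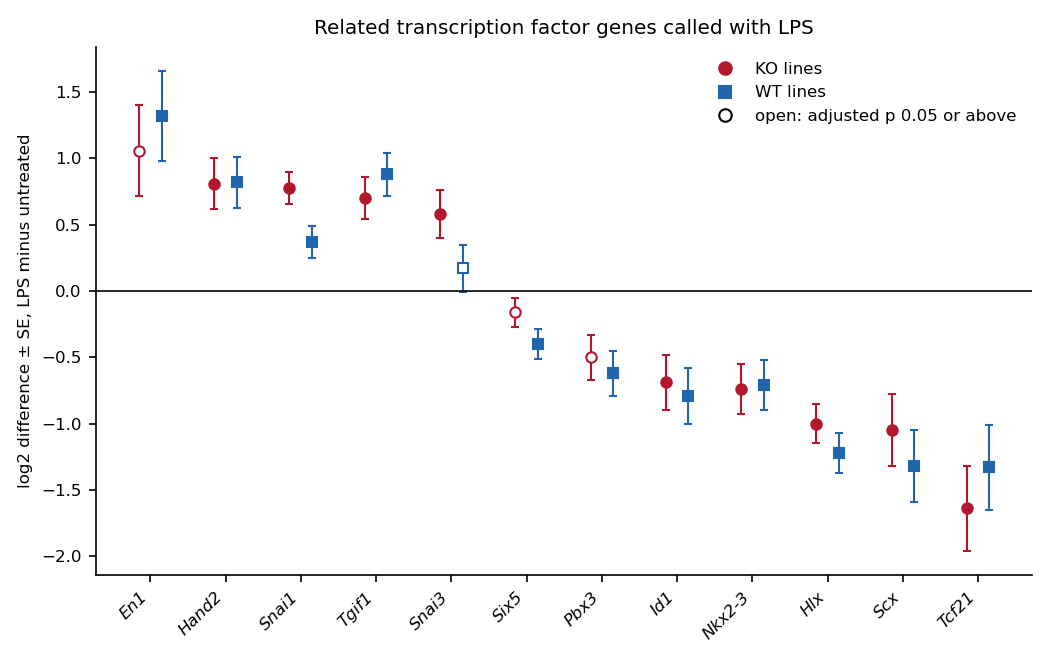
LPS minus untreated difference in log2 intensity (y axis) for the 12 related transcription factor genes called in either genotype (x axis), red circles for KO lines and blue squares for WT lines, bars 1 SE; open symbols have a limma adjusted p of 0.05 or above. All 12 genes have the same sign in both genotypes, from 1.32 for En1 in WT lines to -1.64 for Tcf21 in KO lines.

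The LPS counts rested on all lines. Leaving out KO10 or KO15 left 3 related genes called in KO lines, leaving out WT5 left 2 in WT lines, and leaving out the WT13 LPS array alone left 7 in WT lines, with the calls of Tcf21, Id1, En1, Snai1 and Pbx3 lost and that of Snai2 gained. Genotype called 0 of the 35 related genes with LPS, without LPS and on line means in limma, with 4, 8 and 6 at an unadjusted p below 0.05 (10.8%, 9.11% and 10.3% of all genes). Without the WT13 LPS array, 2 were called for genotype without LPS, Pknox2 and Tcf4, named here after their values were seen. The difference between the LPS changes of KO and WT lines called 0 of the 35, with 1 at an unadjusted p below 0.05.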

How the data were processed

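Unnormalised bead intensity and a detection p-value per probe were deposited by the authors for 12 arrays, per the file headers. The software was BeadStudio, per the submitters' processing notes (version not given in the sources used here). Over all arrays the lowest intensity was 90.08, so no background had been subtracted. A deposited table of processed intensity values served as an alternative. Its columns had medians of 122.4 to 122.5, each correlated best with its own array (r from 0.9997 to 1.0000, log2 scale), and its scale was linear and uncentred.

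limma 3.58.1 in R 4.3.3 corrected background with neqc (negative controls inferred from detection p-values, offset 16), quantile normalised and took log2. Probes with a detection p-value below 0.05 on at least 3 arrays were kept (21124). Of all probes, 34885 carry 1 gene symbol, 18 several and 10378 none in the platform annotation, and none was named from the last 2 kinds. A gene was represented by its probe of highest mean (11060 genes). lmFit and eBayes fitted 4 group means over all 12 arrays, or 6 line means, two-sided, with Benjamini-Hochberg adjustment over all genes. The fit was tested on simulated data.

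Each line gave an untreated and an LPS array, so line numbers pair arrays. Deviations from group means correlated within a line at 0.137 to 0.52, and all 6 lines matched themselves best. The block by line was an alternative, beside those in the closing section. The text names every member, each related gene called in any comparison, and for likeness the 3 most correlated genes of each member detected on all 12 arrays. Members and gene lists were chosen with earlier results of these data known. Summed marker signals are 2 to the power of the log2 value, less the offset. Columns of per-sample values left unused numbered 0. The microRNAs themselves were not analysed here. Promoters came from RefSeq (GRCm38.p6).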

Additional observations from a re-analysis of the deposited data

How the results depend on the processing

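Over 1062 single-gene values under alternatives, 980 stayed on their side of the threshold, 73 lost a call, 9 gained 1 and 0 called values reversed. Values without a call did not always keep their sign. KO minus WT of Twist1 on line means kept it under 7 of 12 alternatives. The LPS difference of Irx3 in WT lines kept it under 10 of 14. The number of members called moved by more than 1.5 times as follows, and the cause was not tested. With the authors' processed values, and without background subtraction, genotype without LPS and genotype on line means each called 0 (main 1), and LPS in KO lines 1 (main 2). With only the compared arrays in the fit, genotype called 0 with LPS and 0 without (main 1 each). With line as a replicate block, LPS called 2 members in WT lines (main 1) and 3 in KO lines, and this pairing changed no other count of members or related genes by over 1.5 times. Leaving out 1 line or the WT13 LPS array (that array chosen after seeing the data) gave 0 to 1 members for genotype without LPS, 1 in every case with LPS, 0 to 2 on line means, 1 to 3 for LPS in KO lines and 0 to 2 for LPS in WT lines. For related genes it gave 0 to 2 for genotype without LPS, 3 to 12 for LPS in KO lines (main 9) and 2 to 11 in WT lines (main 11). Irx1 and Irx3 have no value when detection on all 12 arrays is required. Dim probes limit the sizes: without background subtraction, KO minus WT without LPS was -0.29 for Gbx2, 0.43 for Irx1, 0.94 for Irx2 and -0.11 for Irx3.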
